A study of Mus musculus with 26 samples.

Results

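The 8 genes described here encode adrenergic receptors, the proteins through which noradrenaline and adrenaline act on a vessel: Adra1a, Adra1b, Adra1d, Adra2a, Adra2b, Adra2c, Adrb1 and Adrb3. They were found by symbol, and these 8 were rows among the 57010 genes of the deposited counts. Messenger RNA of whole mesenteric arteries, small vessels of the gut wall's blood supply, was read in 26 libraries from male mice aged 8 weeks. The series compares mice that lack the channel protein pannexin 1, or that carry 1 altered phosphorylation site in it, with control mice. The groups were 3 wild-type (WT) and 3 global Panx1 KO libraries, 3 libraries each of the Y198F control (genotype Y198F-/-) and the Y198F mutant (Y198F+/+), 4 each of the S205A control (S205A-/-) and mutant (S205A+/+), and 3 each of the Y308F control (Y308F-/-) and mutant (Y308F+/+). The series' design text gives 3 vascular trees for each line, whereas the S205A groups have 4 libraries each, and whether these come from 4 animals is not stated. The labels give each line its own controls, described as littermate or wild-type mice, and state no treatment. The knockout is global, so it reaches every cell type of the artery. How the point mutations were made, the strain and any pooling of animals are not given in the sources used here, so p-values measure the spread between these libraries.

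Sympathetic nerves release noradrenaline onto the outer wall of these arteries. Receptors of the α1 group (Adra1a, Adra1b, Adra1d) couple to the G protein Gq, which raises calcium in smooth muscle and makes it contract. Receptors of the α2 group (Adra2a, Adra2b, Adra2c) couple to Gi, which lowers cyclic AMP, and are known on nerve endings, endothelium and muscle. Receptors of the β group (Adrb1, Adrb3) couple to Gs, which raises cyclic AMP, and Adrb3 is best known as the receptor that starts the breakdown of stored fat in adipocytes.

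All 8 receptors carry the aspartate, arginine and tyrosine codons at the inner end of the third membrane helix, a hallmark of this receptor class that takes part in G protein activation. A stretch of 45 coding bases around those codons is shown for the whole family because it identifies the members and shows how near copies they are of one another. The stretches are read from the GENCODE vM39 canonical transcripts on GRCm39, 5′ to 3′ in the direction of transcription, with the codons of the motif in capitals.
Adra1a, chr14:66875372-66875416, plus strand, exon 2 of 3: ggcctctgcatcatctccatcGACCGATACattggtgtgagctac
Adra1b, chr11:43726469-43726513, minus strand, exon 1 of 2: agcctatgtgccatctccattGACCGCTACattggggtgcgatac
Adra1d, chr2:131403507-131403551, minus strand, exon 1 of 2: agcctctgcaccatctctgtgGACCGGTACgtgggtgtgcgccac
Adra2a, chr19:54035057-54035101, plus strand, exon 2 of 2: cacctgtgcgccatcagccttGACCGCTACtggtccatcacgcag
Adra2b, chr2:127205803-127205847, plus strand, exon 1 of 1: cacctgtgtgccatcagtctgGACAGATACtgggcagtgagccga
Adra2c, chr5:35437650-35437694, plus strand, exon 1 of 1: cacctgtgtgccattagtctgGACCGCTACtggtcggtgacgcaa
Adrb1, chr19:56711245-56711289, plus strand, exon 1 of 1: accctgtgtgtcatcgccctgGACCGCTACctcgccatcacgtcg
Adrb3, chr8:27718034-27718078, minus strand, exon 1 of 3: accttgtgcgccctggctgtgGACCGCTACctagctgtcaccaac

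Within an α1, α2 or β group, 31 to 37 of these 45 bases were the same in the 7 pairs. Between groups, 22 to 32 were the same in the 21 pairs. Adra2c was as near to Adra2a as to Adra2b, with 37 of 45 identical bases in both. Over whole canonical transcripts the longest run of bases that any 2 receptors shared was 30, in Adrb1 and Adrb3, while each read had 150 bases. The genes lie on 6 chromosomes, and 2 pairs share one: Adra2a and Adrb1 on chromosome 19, 2.67 Mb apart, and Adra2b and Adra1d on chromosome 2, 4.18 Mb apart. Exons of Adra1d, Adra2a, Adrb1 and Adrb3 overlap a gene on the opposite strand. Whether counting used the strand is not given in the sources used here, so reads of those 4 could include antisense reads. Adra2c is a single exon that overlaps no other gene.

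Total counts per library ran from 14.9 to 23.62 M (mega-counts). The knockout label was checked on Panx1, which had 96, 61 and 95 counts in the wild-type libraries and 11, 20 and 27 in the knockouts. In 9 libraries the library name carries a number beginning with 22 (called the 22 series): the 3 Y198F mutants, the controls 1 to 3 of S205A and its mutants 2 to 4. What that number stands for is not stated. All Y198F mutants and none of the Y198F controls belong to it, so series and mutation cannot be told apart in that comparison. Every library had the smooth muscle markers (Myh11 and 7 others), summing to 20620 to 43070 CPM, that is counts per mega-count of the library. Endothelium markers summed to 1187 to 9936 CPM and adipocyte markers to 82.16 to 3406 CPM. The 9 sympathetic neuron markers summed to 75.18 to 123.0 CPM and were led by Hand2, a transcription factor gene, at 32.26 to 67.84 CPM, while Th, which makes the first committed step of noradrenaline synthesis, had at most 5 counts in any library.

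Adra1a, Adra1d, Adra2a, Adra2c and Adrb3 were read in every library, with lowest counts of 440, 312, 24, 153 and 22. Adra1b, Adra2b and Adrb1 were near the limit of detection. Their medians were 15.0, 18.0 and 18.5 counts. Adra1b and Adra2b each had 1 library at 0 and 2 libraries at or under 3 counts, the floor of detection used here, and Adrb1 had 1 at 3 counts.

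Levels of different genes were compared per kilobase (kb) of exon, because a longer transcript gives more reads. Per kb of all annotated exons the median over the 26 libraries was 6.598 CPM per kb for Adra1d, 5.567 for Adra2c, 2.608 for Adrb3, 2.353 for Adra1a and 1.269 for Adra2a. Adrb1 (0.2921), Adra2b (0.2466) and Adra1b (0.2292) followed far below. Neighbours in this order overlapped in range. Adra1d was above Adra2c in 15 of 26 libraries and Adrb3 above Adra1a in 14, so those neighbours were not set apart, nor were the 3 lowest. Adra2a was above Adrb1 in 26 of 26 libraries. The place of Adra1a rests on the length used, since its 21 annotated transcripts cover 20.155 kb and its canonical transcript 4.372 kb. Per kb of the canonical transcript Adra1a came first with 10.85 CPM per kb, above Adra1d in 23 of 26 libraries.

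**Figure D1:**
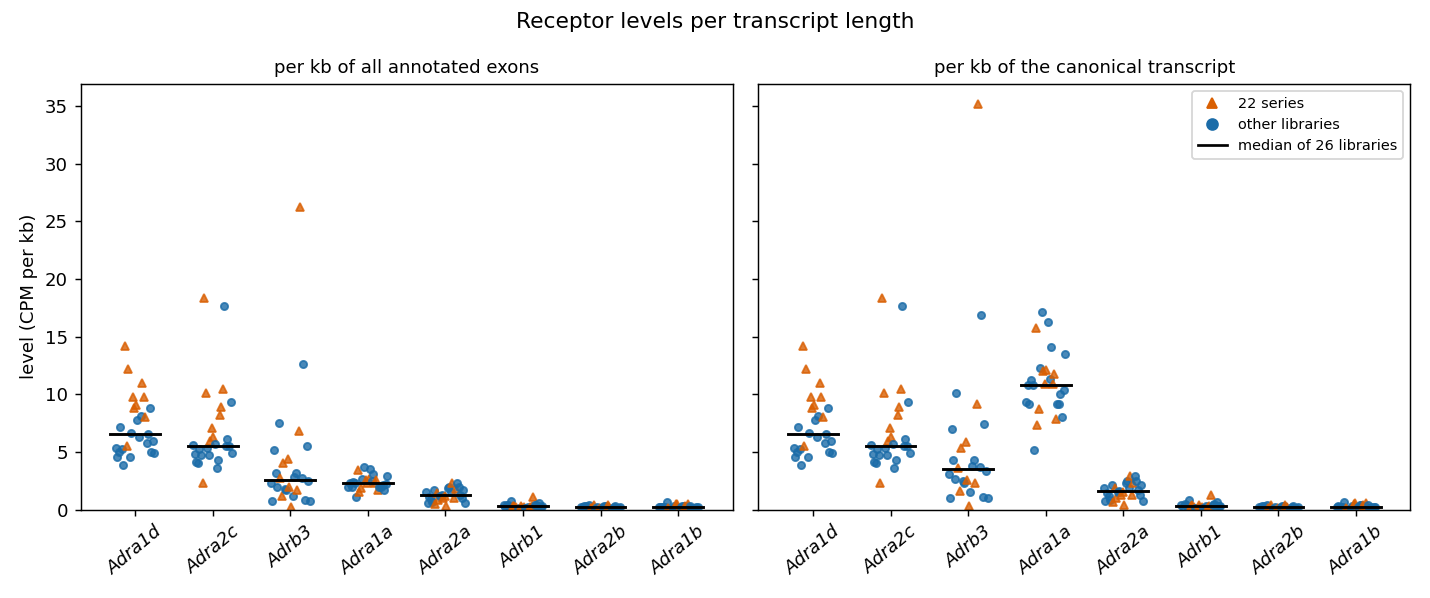
Receptor levels in CPM per kb in the 26 libraries, over all annotated exons (left) and over the canonical transcript (right); triangles are the 22 series, circles the other libraries and bars medians. Adra1a stands at 2.353 on the left and 10.85 on the right, while Adra1b, Adra2b and Adrb1 lie near 0 on both.

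Among the α1 receptors, Adra1a varied over all libraries from 22.6 to 75.1 CPM with a median of 47.42. Adra1d ran from 16.03 to 59.13 CPM with a median of 27.49. Adra1b ran from 0 to 2.158 CPM. Adra1a and Adra1d, the receptors of the group that the artery carried in quantity, had coefficients of variation of 25.4% and 35.3% over the 26 libraries. Adra2c had 55.6%, and Adrb3 had 128%, the highest of the 8 receptors.

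Adra2c, the α2 receptor with the highest level per kb of its group, was the one receptor that passed the test in a comparison of mutants with their labelled controls. It had 28.23, 30.68 and 36.22 CPM in the Y198F mutants and 19.59, 12.6 and 15.01 CPM in the Y198F controls. Each mutant library was above each control library. The mean was 31.71 ± 4.09 CPM (SD, n = 3) against 15.73 ± 3.55 (SD, n = 3). The log2 fold change was 1.00 (SE 0.171), with an adjusted p of 0.00327 in edgeR's quasi-likelihood test, adjusted over all genes tested. Of the 8 receptors 1 was thus called, where 15.0% of all 16050 tested genes were called in that comparison and 9.55% were called higher. Without single libraries the share of genes called was 5.43% (without Y198F control 3) to 12.8%, and 9.21% without Y198F control 1. Groups did not overlap in 34.2% of those genes. The exact permutation p of Adra2c was 0.1, the smallest that 3 against 3 allow.

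The same Adra2c levels looked otherwise beside libraries of the same series. S205A controls 1 to 3, which belong to the 22 series, had 7.929, 63.14 and 34.9 CPM, a range that holds all 3 Y198F mutants. Against these controls the log2 fold change of Adra2c in the Y198F mutants was -0.16 (SE 0.671), with an edgeR adjusted p of 1.0. In one fit of all 8 groups the difference from the labelled controls was 1.01 (SE 0.512) with an edgeR adjusted p of 0.259, and with the series added as a term it was 0.34 (SE 0.709) with an adjusted p of 1.0, neither of them called. That term can be estimated from the S205A line alone, where only S205A control 4 and S205A mutant 1 are outside the 22 series. Within the S205A line Adra2c was 0.67 (SE 0.655) on the log2 scale higher in the 22 series than in the other libraries, with an edgeR adjusted p of 0.647. With single libraries left out that value ran from 0.31 to 0.92. The authors' deposited table for Y198F gives Adra2c 0.015 with an adjusted p of 0.998, and its fold changes match a contrast with the S205A controls (largest difference over genes 0.000158) and not with the Y198F controls.

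In the other lines Adra2c was spread unevenly over libraries. Wild-type libraries had 13.9, 18.18 and 16.34 CPM and knockouts 19.26, 16.74 and 14.27, which overlap. S205A control 4 had 18.58 CPM, and the S205A mutants had 16.37, 20.61, 24.38 and 21.59. Y308F control 1 stood at 60.94 CPM beside 19.09 and 21.14 in the other controls, and the Y308F mutants had 18.95, 32.06 and 16.83. The group means in the S205A and Y308F lines thus rest on single high or low control libraries: without S205A control 2 the log2 difference of the S205A mutants moves from -0.59 to 0.01, and without Y308F control 1 that of the Y308F mutants moves from -0.57 to 0.19.

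**Figure D2:**
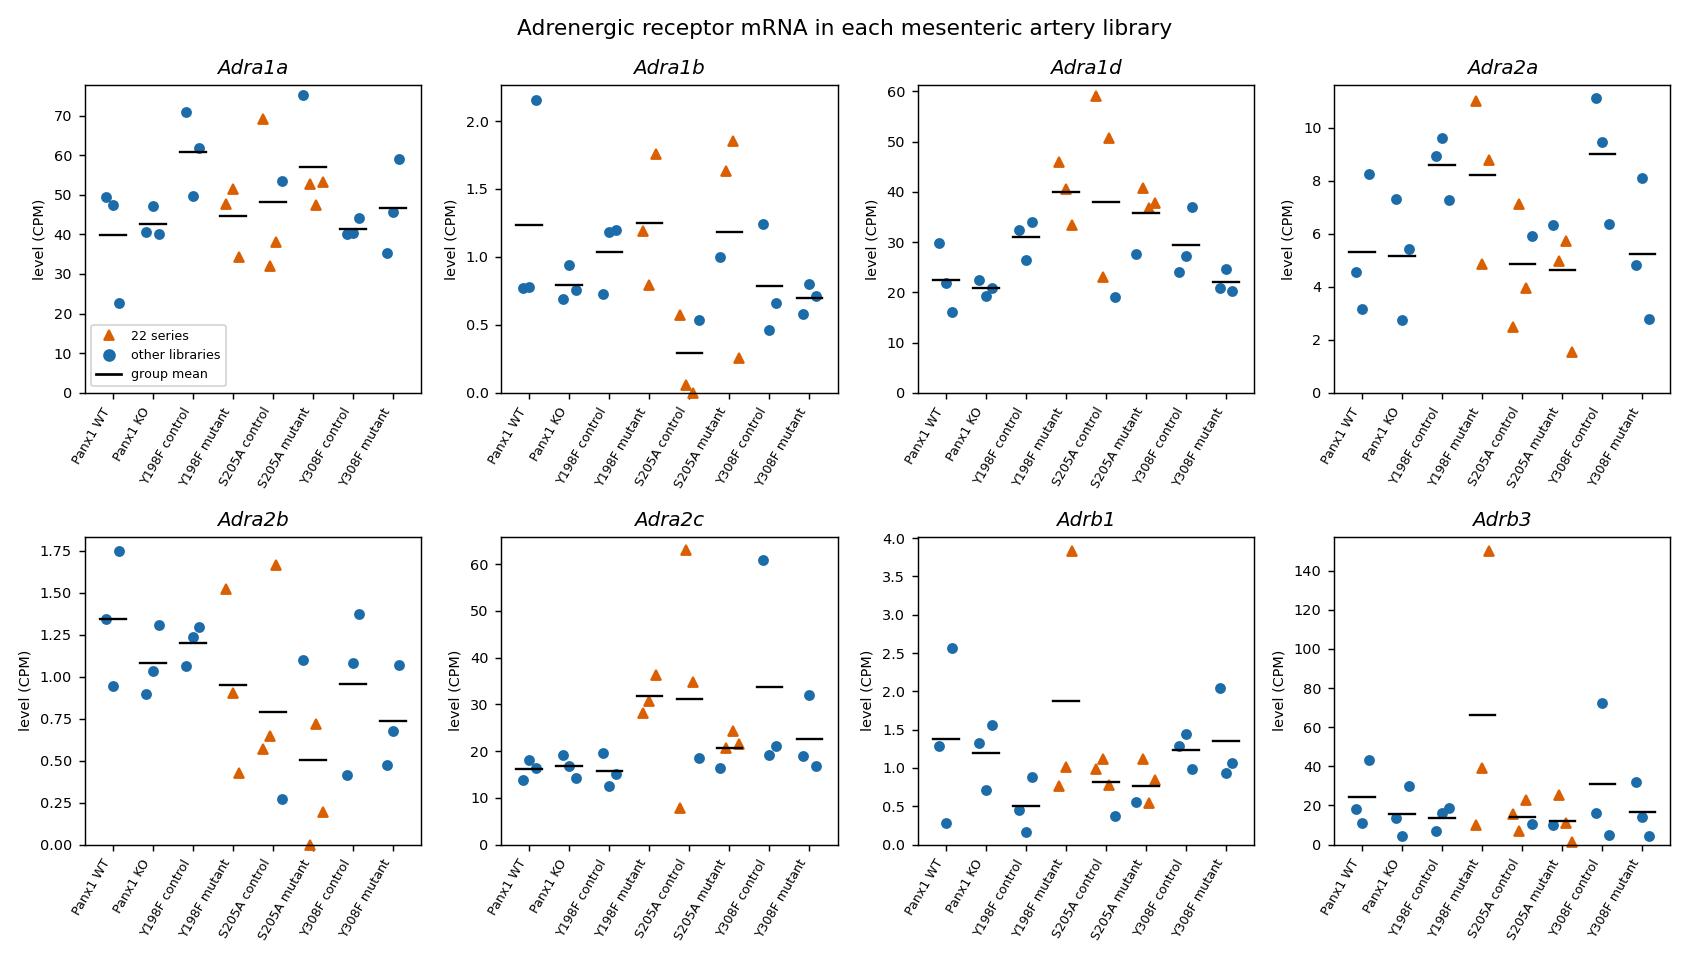
Level of each receptor in CPM (vertical axes, each starting at 0) in every library of the 8 groups; triangles are the 22 series, circles the other libraries, bars group means. Adra2c lies between 28.23 and 36.22 in the Y198F mutants, and Adrb3 reaches 150.0 in 1 of them.

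The libraries with the highest and the lowest Adra2c were those with the most and the least endothelial RNA. S205A control 1, lowest in Adra2c at 7.929 CPM, had the lowest endothelium marker sum, 1187 CPM over Pecam1, Cdh5, Tie1, Tek, Vwf, Cldn5 and Kdr. S205A control 2, highest at 63.14 CPM, had the highest sum, 9936, and Y308F control 1 had 9776. Pearson's r of log2 values was 0.925 in the 9 libraries of the 22 series (exact permutation p = 0.00621, adjusted over 10 relations 0.0104) and 0.843 in the other 17 (permutation p = 0.00015, adjusted 0.00075). Spearman's rho was 0.533 (exact permutation p = 0.148) and 0.625 (permutation p = 0.00874). Without the 2 libraries farthest from the median sum r fell to 0.058 and 0.451, so the relation rests on those libraries. This relation was added after the values were seen. In bulk arteries fewer cells of a type and less RNA per cell cannot be told apart. Sums in the Y198F mutants, 4962 to 5430 CPM, were above the 3792 to 4836 of their controls, as were the sums of the sympathetic neuron list, 101.7 to 112.3 against 86.97 to 97.68 CPM. Hand2 (46.87 to 51.87 CPM in the mutants) and Uchl1 (45.94 to 58.47 CPM) make up most of that sum, Th had 0 counts in all 6 libraries, and the nerve-ending transporters Slc6a2 (-1.50, SE 0.726) and Slc18a2 (-1.01, SE 0.530) had negative log2 fold changes, with edgeR adjusted p-values of 0.206 and 0.238. The fibroblast sums, 1992 to 2995 against 3084 to 4023 CPM, and the Schwann cell sums, 206.9 to 220.1 against 238.6 to 334.7 CPM, were lower in the mutants. The part of these marker lists in the Adra2c difference was not tested.

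Adrb3, the β receptor of adipocytes, was the most variable receptor. The Y198F mutants had 9.935, 39.1 and 150.0 CPM, and their controls 6.715, 16.2 and 18.44, which overlap. The log2 fold change was 2.26 (SE 1.16), with an edgeR adjusted p of 0.3, and 0.83 (SE 0.784) without Y198F mutant 3. Wild-type libraries had 18.29, 11.25 and 43.0 CPM and knockouts 13.33, 4.433 and 29.75. S205A controls had 15.6, 7.055, 22.97 and 10.56, and S205A mutants 10.03, 25.18, 11.12 and 1.418. Y308F controls had 15.92, 72.15 and 4.735, and Y308F mutants 31.81, 14.23 and 4.221. In none of the 4 lines did mutant and control libraries separate.

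Adrb3 followed the adipocyte markers (Adipoq, Plin1, Cidec, Lep, Retn, Cfd, Pparg and Lpl) from library to library. S205A mutant 4 had the lowest Adrb3 and the lowest marker sum, 82.16 CPM. Y198F mutant 3, with 150.0 CPM of Adrb3, had a sum of 2546 CPM, and Y308F control 2, with 72.15, had 2172. Pearson's r was 0.972 in the 22 series (n = 9, exact permutation p = 0.000265, adjusted over 10 relations 0.000882) and 0.864 in the other libraries (n = 17, permutation p = 1e-05, the smallest that 100000 resamples give, adjusted 0.0001). Spearman's rho was 0.933 (exact permutation p = 0.00075) and 0.841 (permutation p = 3e-05). The relation held without the 2 libraries farthest from the median, with r of 0.892 and 0.863. Panx1 WT replicate 3 had the highest marker sum, 3406 CPM, with 43.0 CPM of Adrb3, below those 2 libraries. The 4 brown adipocyte markers, led by Ppargc1a, summed to 5.027 to 18.13 CPM over the 26 libraries, and Ucp1, the defining marker of brown fat, had at most 2 counts in any of them.

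**Figure D3:**
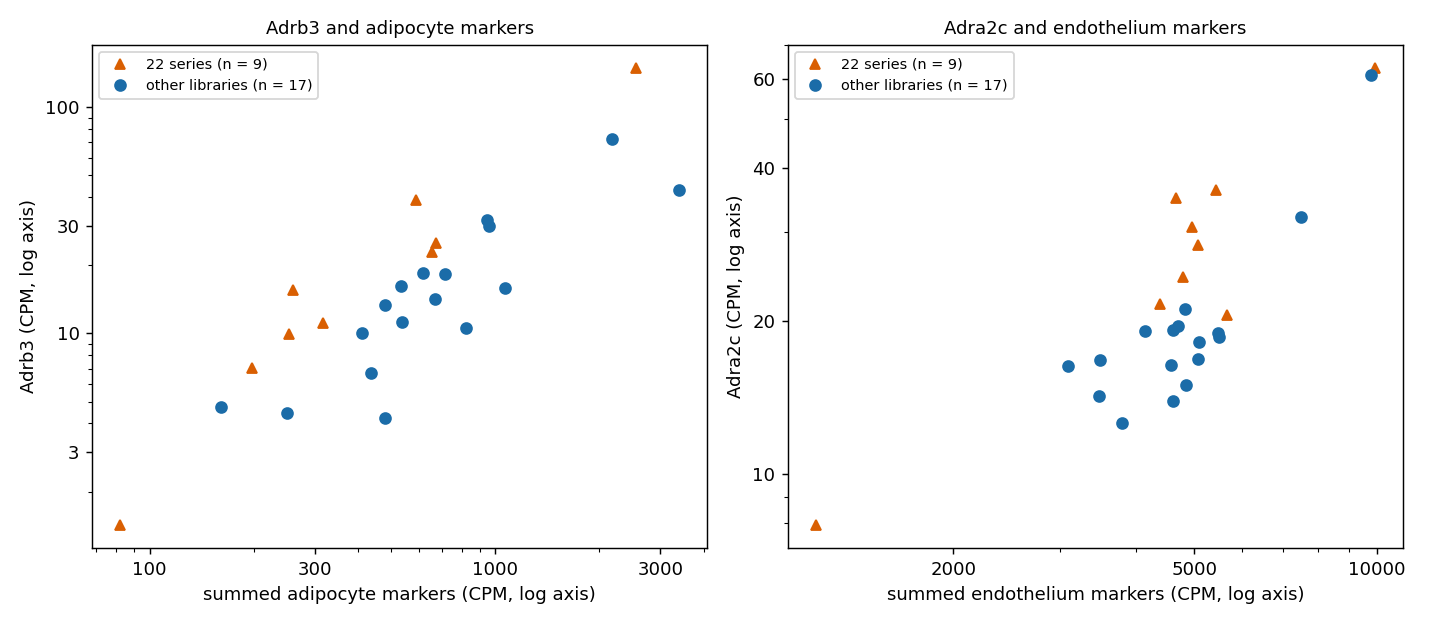
Left, Adrb3 against the summed adipocyte markers, and right, Adra2c against the summed endothelium markers, in CPM on log axes with 1 point per library; triangles are the 22 series and circles the other libraries. Adrb3 is higher where the adipocyte sum is higher (r 0.972 and 0.864), although the library with the highest sum, 3406, has 43.0 and not the highest Adrb3, whereas for Adra2c r falls to 0.058 and 0.451 without the 2 outermost libraries.

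The other β receptor, Adrb1, known for raising heart rate and force, stayed between 0.1687 and 3.835 CPM. Its highest library was Y198F mutant 3, the one with the highest Adrb3. The Y198F mutants had 14, 19 and 72 counts of Adrb1 and their controls 8, 3 and 17, so the ranges overlap. The log2 fold change was 1.87 (SE 0.771), with an edgeR adjusted p of 0.132, and 0.81 (SE 0.812) without Y198F mutant 3. Adrb1 and Adrb3 had an r of 0.669 over the 9 libraries of the 22 series and 0.473 over the other 17, given as a description.

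The α1 receptors Adra1a and Adra1d did not pass the test in the Y198F comparison. Adra1a had 47.67, 51.5 and 34.41 CPM in the mutants and 71.01, 49.65 and 61.77 in the controls, which gave -0.46 (SE 0.171) on the log2 scale, edgeR adjusted p 0.107. Its value ran from -0.58 to -0.29 with single libraries left out, and the highest over all alternative fits was -0.062. Adra1d had 45.93, 40.59 and 33.34 CPM in the mutants and 32.35, 26.37 and 34.03 in the controls, which gave 0.36 (SE 0.145), adjusted p 0.118. Mutant and control ranges overlapped for both genes, and their unadjusted p-values were 0.0242 and 0.0279. Against S205A controls of the 22 series the values were -0.060 (SE 0.307) for Adra1a and -0.15 (SE 0.336) for Adra1d.

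The ratio of Adra1d to Adra1a counts, which needs no scaling between libraries, was examined after the values were seen and is given as a description. It was 0.964, 0.788 and 0.969 in the Y198F mutants and 0.456, 0.531 and 0.551 in their controls. Over the 9 libraries of the 22 series it ran from 0.711 to 1.33 with a median of 0.788. Over the other 17 it ran from 0.344 to 0.838 with a median of 0.543, and 1 of those 17, Y308F control 3, was above the lowest of the 22 series. Inside the S205A line, where both series hold controls and mutants, the 6 libraries of the 22 series had 0.711 to 1.33, and S205A control 4 and S205A mutant 1, the others, had 0.358 and 0.369. Adra1d itself was 0.82 (SE 0.346) higher on the log2 scale in the 22 series of that line, with an unadjusted p of 0.0475 and an edgeR adjusted p of 0.236. With single libraries left out that value ran from 0.47 to 1.20. No receptor was called there, where 5.02% of 17256 genes were, until S205A control 1 was left out, which gave Adra1a -0.58 with an adjusted p of 0.0168, where 6.7% of genes were called. The share of genes called was 0.443% without S205A control 4 and 0.605% without S205A mutant 1, fits that leave 1 library outside the 22 series and assume that it varies like the others.

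**Figure D4:**
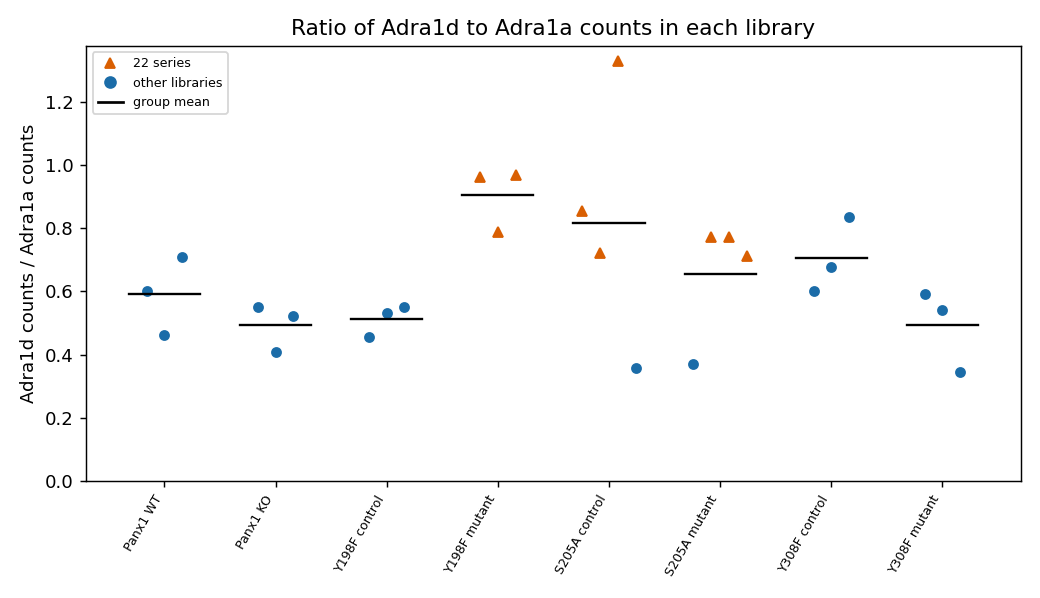
Ratio of Adra1d to Adra1a counts in each library by group, with triangles for the 22 series, circles for the other libraries and bars for group means. The 9 triangles lie from 0.711 to 1.33, and the 2 circles of the S205A line are at 0.358 and 0.369.

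Adra1a and Adra1d also followed the smooth muscle marker sum within the 22 series, with r of 0.839 (exact permutation p = 0.00527, adjusted 0.0104) and 0.836 (exact permutation p = 0.00607, adjusted 0.0104), n = 9. Spearman's rho was 0.817 (exact permutation p = 0.0108) and 0.767 (exact permutation p = 0.0214). Without the 2 libraries farthest from the median sum r was 0.559 and 0.561, so these relations rest in part on those libraries. In the other 17 libraries r was 0.428 (permutation p = 0.0845) and 0.419 (permutation p = 0.0943), neither under 0.05 after adjustment. Adra1b went the other way in the 17, with r of -0.51 (permutation p = 0.034, adjusted 0.0486), from counts of 9 to 42, but its rho of -0.40 had a permutation p of 0.113. In the 22 series Adra1b had an r of -0.15 (exact permutation p = 0.706).

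Loss of pannexin 1 left no receptor past the threshold. In edgeR's test 0 of 8 receptors were called in knockout against wild type, where 0.0309% of 16193 genes were called. None of the 8 had an unadjusted edgeR p under 0.05, where 1817 of the 16193 genes did. DESeq2 called 0 of 8 receptors and 0.396% of 29582 genes. Log2 fold changes ran from -0.61 (SE 0.552) for Adra1b and -0.59 (SE 0.875) for Adrb3 to 0.12 (SE 0.281) for Adra1a. Adra1d (-0.090, SE 0.205) and Adra2c (0.075, SE 0.165) were measured most closely. Adra1d had 29.75, 21.83 and 16.03 CPM in the wild-type libraries and 22.43, 19.19 and 20.9 in the knockouts. Adra1a had 49.33, 47.32 and 22.6 CPM and 40.69, 47.2 and 40.05. The knockout ranges of these genes lie inside or across those of the wild type, and wild-type replicate 3 was the lowest library for both. Groups did not overlap in 0 of 8 receptors and in 18.8% of all tested genes.

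In the S205A line 0 of 7 receptors tested were called by edgeR, where 0.0% of 15709 genes were. None of the 7 had an unadjusted edgeR p under 0.05, where 451 of the 15709 genes did. DESeq2 called 0 receptors and 0.162% of 28998 genes. The fold changes ran from -0.61 (SE 0.949) for Adra2b to 0.24 (SE 0.242) for Adra1a. Adra1b did not pass the filter on low counts. It had 11, 1, 0 and 10 counts in the S205A controls and 20, 25, 31 and 4 in the mutants, so the mutant range reaches into the control range through mutant 4. Its mean was 1.19 ± 0.717 CPM (SD, n = 4) against 0.292 ± 0.304 (SD, n = 4), with an exact two-sided permutation p of 0.0857, where 4 against 4 allow 0.0286. Fibroblast marker sums separated the same groups, with 2133 to 6106 CPM in the mutants and 1486 to 2023 in the controls, as did Schwann cell sums, with 186.2 to 306.8 against 128.6 to 177.3 CPM, and their part in the Adra1b values was not tested. Fitted without the filter, its log2 fold change was 1.99 with an adjusted p of 0.898. The authors' deposited table gives Adra1b 2.00 with an unadjusted p of 0.00209 and an adjusted p of 0.201. Groups overlapped in all 7 tested receptors and failed to overlap in 1.8% of tested genes.

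The Y308F line likewise had 0 of 8 receptors past the threshold in edgeR, where 0.0% of 16037 genes passed it. DESeq2 called 0 receptors and 0.0% of 29461 genes. Of the receptors, Adra1d alone had an unadjusted edgeR p under 0.05, 0.0441, where 706 of the 16037 genes had such a p. Adra1d had 20.89, 24.71 and 20.34 CPM in the mutants and 24.12, 27.28 and 36.89 in the controls, and mutant 2 lay above control 1. That gave -0.41 (SE 0.175) on the log2 scale and an edgeR adjusted p of 0.94. With single libraries left out the value ran from -0.53 to -0.21. Adra2a, the main brake on noradrenaline release from sympathetic nerve endings, had 4.829, 8.109 and 2.797 CPM in the mutants and 11.14, 9.47 and 6.387 in the controls. Its value was -0.77 (SE 0.385), with an edgeR adjusted p of 0.94, and ran from -1.21 to -0.46 with single libraries left out. The sums of the sympathetic neuron list, mostly Hand2 and Uchl1, were 84.51 to 92.75 CPM in these mutants and 96.65 to 123.0 in the controls, while Slc6a2 had a log2 fold change of 0.20 (SE 0.584), and their part in the Adra2a values was not tested. Adra2b, whose activation constricts vessels, stayed between 0 and 1.747 CPM in all groups and had a standard error of at least 0.442 in each line. Groups did not overlap in 0 of 8 receptors, against 10.7% of all tested genes.

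Against S205A controls of the 22 series, the Y198F mutants had 0 of 8 receptors called by edgeR, where 0.0% of 15879 genes were called. None of the 8 had an unadjusted edgeR p under 0.05, where 492 of the 15879 genes did. DESeq2 called 0 of 8 receptors and 0.14% of 26433 genes. Adra1b had the highest value, 2.51 (SE 1.12) with an unadjusted p of 0.0546, from 22, 15 and 33 counts against 11, 1 and 0. With single libraries left out the value ran from 1.95 to 5.14, the latter without S205A control 1, which leaves controls of 1 and 0 counts. Adrb3 had 2.12 (SE 0.997), and 0.69 (SE 0.727) without Y198F mutant 3. Adra2a had 0.86 (SE 0.453), and 0.57 to 1.36 with single libraries left out. This comparison sets mice of different lines side by side.

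**Figure D5:**
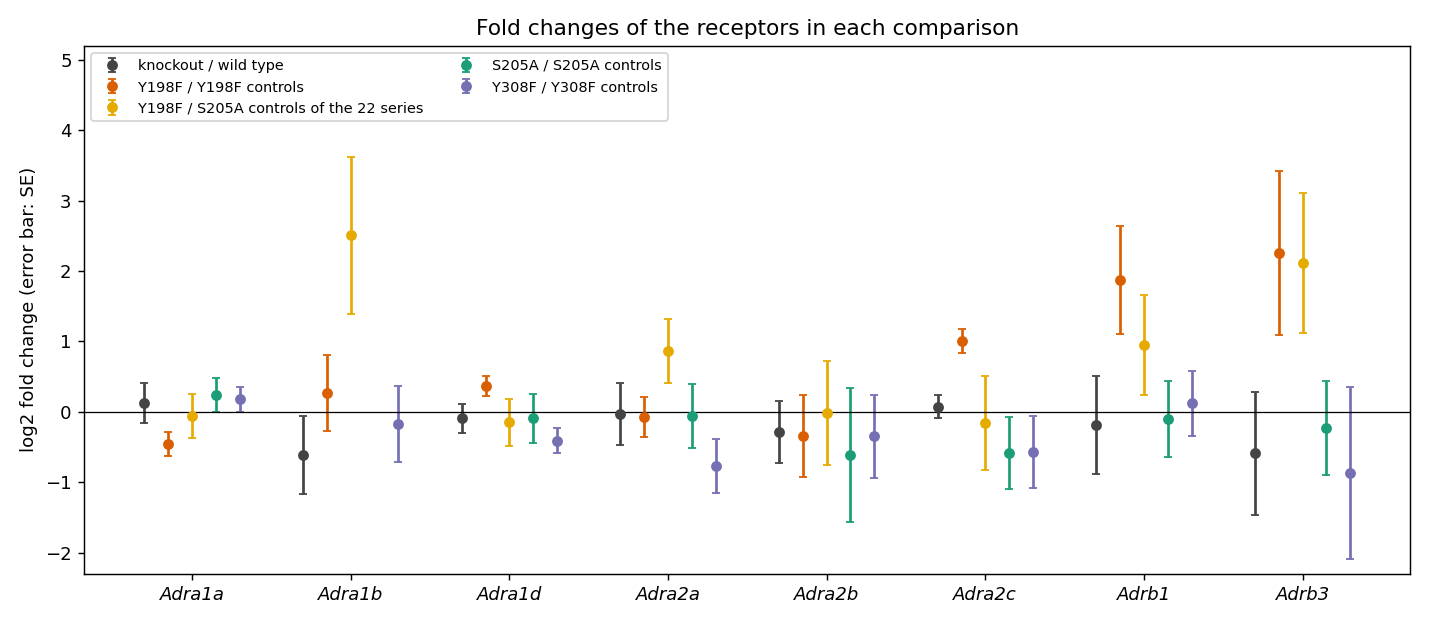
Log2 fold changes (vertical axis) of the receptors in the 4 comparisons with labelled controls and in the comparison of Y198F mutants with S205A controls of the 22 series; error bars are SE. Adra2c is at 1.00 against the Y198F controls and at -0.16 against the S205A controls, and Adra1b has no S205A value because it did not pass the filter.

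Whether a mutation moved a receptor differently from another was tested as the difference of the effects in a model of both lines. Adra2c differed between the knockout and Y198F, by -0.93 (SE 0.246) on the log2 scale, with an edgeR adjusted p of 0.0271. It was the 1 of 8 receptors called, where 11.6% of 17347 genes were called. That difference holds the 22 series on the Y198F mutant side only, and it was not called with the series as a term, with all 8 groups in one fit, or without any 1 of 5 libraries (knockout 2, knockout 3, Y198F control 2, Y198F control 3, Y198F mutant 3). For Y198F and Y308F 0 of 8 were called, where 5.7% of 17190 genes were. Adra1d came nearest, 0.77 (SE 0.241) with an adjusted p of 0.0734, and leaving out Y308F control 1 brought it to 0.89 with an adjusted p of 0.0396. The other 4 differences of effects called 0 of 8 receptors each, where 0.0% (Y198F and S205A, S205A and Y308F), 0.00562% (knockout and S205A) and 0.0116% (knockout and Y308F) of genes were called. Among them 1 value had an unadjusted p under 0.05, that of Adra2c between Y198F and S205A. It was 1.59 (SE 0.687) with an edgeR adjusted p of 0.328, and 1.00 (SE 0.521) without S205A control 2. In that difference 2499 of 17479 genes had an unadjusted edgeR p under 0.05. Without S205A control 4, 5.14% of genes and 0 of 8 receptors were called in that difference.

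The signalling genes downstream of the receptors were read from lists of the Gq arm (22 genes), the Gi arm (7), the Gs arm (18), receptor desensitization (11) and transmitter synthesis, release and clearance (16). In the knockout, S205A and Y308F comparisons, and in Y198F against S205A controls of the 22 series, 0 members of any list passed the test in edgeR. In Y198F against its labelled controls, 15.0% of all genes passed, and 6 of 22 members of the Gq arm did. Gna12 (0.60, SE 0.0988), Arhgef1 (0.55, SE 0.0949) and Gna11 (0.47, SE 0.0957) rose. Gna12 encodes a G protein α subunit upstream of the small GTPase RhoA, Arhgef1 an activator of RhoA, and Gna11 a close relative of Gnaq. Gnaq (-0.50, SE 0.106), the α subunit that gives the Gq arm its name, Prkca (-0.67, SE 0.153), a protein kinase C, and Arhgef12 (-0.52, SE 0.124), another RhoA activator, fell. The median of the list was -0.18, against -0.0028 over all genes.

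Of the Gs arm 2 of 18 rose, the adenylyl cyclases Adcy5 (0.50, SE 0.128) and Adcy4 (0.41, SE 0.109), with a list median of 0.035. Of 11 desensitization genes Grk2 (0.37, SE 0.0940), a kinase that marks active receptors for removal, rose, while Arrb1 (-0.49, SE 0.109), the arrestin that binds them, and Grk5 (-0.57, SE 0.169), another such kinase, fell. The median was 0.026. The 8 tested transmitter genes had a median of -0.16. No member of the Gi arm was called among 5 tested, with a median of 0.012. Within the S205A line Gna12 (0.67, SE 0.140) was higher and Arhgef12 (-0.50, SE 0.122) lower in the 22 series than in the other libraries, with edgeR adjusted p-values of 0.0284 and 0.0491. Gnaq (-0.66, SE 0.302), Gna11 (0.42, SE 0.115), Arhgef1 (0.51, SE 0.152), Adcy5 (0.68, SE 0.253), Grk2 (0.39, SE 0.112), Grk5 (-0.84, SE 0.276), Prkca (-0.32, SE 0.256), Adcy4 (0.40, SE 0.534) and Arrb1 (-0.46, SE 0.431) had there the sign of their Y198F values, with edgeR adjusted p-values of 0.0716 to 0.753. Against S205A controls of the 22 series the Y198F mutants had -0.12 (SE 0.133) for Gna12, 0.059 (SE 0.158) for Arhgef1, -0.054 (SE 0.120) for Gna11, 2.5e-05 (SE 0.302) for Gnaq, 0.17 (SE 0.257) for Prkca and -0.073 (SE 0.149) for Arhgef12. Of the other lists, that comparison gave -0.28 (SE 0.243) for Adcy5, -0.10 (SE 0.561) for Adcy4, -0.049 (SE 0.120) for Grk2, 0.31 (SE 0.331) for Grk5 and -0.037 (SE 0.473) for Arrb1. That comparison crosses lines as well.

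The genes whose levels were most like a receptor's over the 17 libraries outside the 22 series were sought among 12905 genes, with Pearson's r of log2 CPM as the measure, and then read in the 9 libraries of the 22 series. The libraries share depth and tissue makeup, so the values describe likeness only. For Adrb3 they were Nnmt, a nicotinamide methyltransferase (0.925), Tmx2 (0.909) and Lipe, the hormone-sensitive lipase of fat cells (0.904). Lipe had 0.909 in the 22 series, where Nnmt had 0.473 and Tmx2 0.516. Without the 2 libraries farthest from the median of Adrb3, Lipe had 0.903 in the 17 and 0.805 in the 22 series, where Nnmt then had 0.013 and Tmx2 -0.095.

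For Adra2c they were Rgs3, a brake on G protein signalling (0.943), Gata2, a transcription factor of endothelial cells (0.935), and Map3k11 (0.932), with 0.926, 0.942 and 0.921 in the 22 series. Without the 2 farthest libraries the values were 0.693, 0.715 and 0.688 in the 17, and -0.0037, 0.54 and 0.17 in the others. For Adra1d they were Trpc6, a cation channel (0.848), Tnk2 (0.827) and Ptgir, the prostacyclin receptor (0.811). Tnk2 had 0.868 and Ptgir 0.762 in the 22 series, against 0.418 for Trpc6. Without the 2 farthest libraries Tnk2 had 0.818, Ptgir 0.441 and Trpc6 -0.72 there. For Adra1a they were Inpp5b, an inositol phosphatase (0.936), Dnmbp (0.908) and Gm27177 (0.900), which had 0.629, 0.373 and 0.424 in the 22 series, and 0.933, -0.34 and 0.224 there without the 2 farthest libraries. For Adra2a they were Decr2 (0.750), Stard8 (0.747) and Smim4 (0.742), with -0.31, 0.614 and 0.385 in the 22 series. The leading genes for Adra1b, Adra2b and Adrb1, the receptors of few counts, had 0.756 to 0.872 in the 17 libraries and -0.57 to 0.55 in the 22 series.

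Among the receptors themselves, Adra1a and Adra1d had an r of 0.702 in the 22 series and 0.540 in the other 17 libraries. Adra1a and Adra2c had -0.91 in the 22 series and -0.15 in the others, and Adra1d and Adra2c -0.76 and 0.019. S205A control 1, high in both α1 receptors at 69.03 and 59.13 CPM and lowest in Adra2c, and S205A control 2, lowest in Adra1a of the 9 at 31.98 CPM and highest in Adra2c, stand at the ends of that relation. Adra1a had -0.58 with Adrb3 and -0.64 with Adrb1 in the 17 libraries, and -0.26 and -0.41 in the 9.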

How the data were processed

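Per the labels' protocols, RNA of mesenteric arteries was sequenced in read pairs of 150 bases. Per the labels' protocols, the authors' mapping used STAR 2.7.9a on GRCm39, and their counts come from featureCounts (Rsubread 2.20.0). The annotation release and the strand setting are not given in the sources used here. The authors also deposited a normalized signal (counts divided by a size factor per library, 21031 genes) and comparison tables made with DESeq2 1.46.0, which hold a log2 fold change, a test score and p-values.

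Fold changes were computed here from the deposited counts with edgeR 4.0.16 in R 4.3.3: TMM normalization, filterByExpr, robust quasi-likelihood fits of the groups compared, and Benjamini-Hochberg adjustment over all genes tested, with 0.05 as the threshold. The fits were also run on simulated counts with the same dispersion for every gene and no difference between series. That run does not test them under the spread or the series seen here. CPM values use TMM library sizes over all 26 libraries, and correlations use log2 CPM with a prior count of 2. Lengths, positions and coding sequence come from GENCODE vM39. Single values were compared by exact two-sided permutation tests. Alternatives were DESeq2 1.42.0, DESeq2 size factors, no filter, one fit of all 8 groups, a replicate block, a term for the library series, and each library left out. The counts carry no molecular identifiers, so floors cover counting error only.

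The receptors, gene lists and tests were chosen with earlier results of these data known. Named genes are the 8 receptors, Panx1, list members past the threshold (up to 4 per direction) and the 3 genes most like a receptor, some given here as ranges. Identifiers matched the annotation for 56310 of 57010 genes, and the rest held 0.0433% of counts. The result of 1 member of the transmitter list is not reported here.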

Additional observations from a re-analysis of the deposited data

Results flagged for a closer look

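Adra2c was singled out because its effect differed between mutations: the knockout effect minus the Y198F effect was -0.93 on the log2 scale (-0.9269, SE 0.246), with an edgeR adjusted p of 0.0271. Knockout libraries had 14.27 to 19.26 CPM against 13.9 to 18.18 in the wild type, and Y198F mutants 28.23 to 36.22 against 12.6 to 19.59 in their controls. All Y198F mutants belong to the 22 series, so series and mutation cannot be told apart in this difference. Each receptor in each S205A group of 4 libraries was also searched for a library far from the others, in 16 group and receptor combinations, and none passed Dixon's critical value.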

How the results depend on the processing

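Of the receptors in Y198F against its controls, 1 passed the threshold in the main fit, 0 with all 8 groups in one fit, 0 with the library series as a term, 3 without the filter on low counts (Adra2c, Adra1a and Adrb1, where 3158 of 28760 genes were called), and 1 to 2 when single libraries were left out (5.43 to 12.8% of all genes); without Y198F mutant 3, Adra1d (0.49) was called too. For the difference of knockout and Y198F the main count of 1 became 0 with all 8 groups, 0 with the series term, 3 without the filter (8.26% of all genes), and 0 to 1 with libraries left out (5.74 to 11.1%). For Y198F and Y308F the count of 0 became 4 without the filter (5.37% of all genes) and 0 to 1 with libraries left out (1.78 to 6.82%). In these differences the unfiltered fits gave Adrb3 an SE of 0.215 (knockout and Y198F) and 0.227 (Y198F and Y308F), against 1.48 and 1.74 with the filter, and called it only there. For the 22 series against others in the S205A line it was 0 to 1 with libraries left out. The cause was not tested.

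The sample titles tie samples with the same replicate number by that number only, and whether they were matched is not known here. Their deviations correlated from -0.15 to 0.43 in the knockout pair of groups and -0.091 to 0.14 in Y198F. In S205A they correlated from -0.42 to 0.22 and in Y308F from -0.27 to 0.13. In each mutant group 1 sample correlated best with its own number. With the replicate number as a block, 1 receptor remained called in Y198F (Adra2c, 1.02) and 1 in the difference of knockout and Y198F, and 0 in the others. Under the block Adra1d in S205A turned from -0.090 to 0.057 and Adrb1 in the knockout from -0.19 to 0.10, both not called.

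With the series as a term, Adra1d in Y198F turned to -0.45, Adra2a to 0.45 and Adra2b to 0.11, none called. Leaving out single libraries turned the sign of these values, none of them called in the main fit. In the knockout the ranges were -0.16 to 0.30 for Adra1a, -0.87 to 0.059 for Adra1b, -0.29 to 0.15 for Adra1d, -0.38 to 0.44 for Adra2a, -0.052 to 0.17 for Adra2c, -0.67 to 0.62 for Adrb1 and -1.43 to 0.12 for Adrb3. In Y198F they were -0.055 to 0.50 for Adra1b, -0.35 to 0.20 for Adra2a and -0.85 to 0.014 for Adra2b. In S205A they were -0.31 to 0.21 for Adra1d, -0.28 to 0.23 for Adra2a, -1.33 to 0.041 for Adra2b, -0.91 to 0.011 for Adra2c, -0.34 to 0.075 for Adrb1 and -0.90 to 0.14 for Adrb3. In Y308F they were -0.016 to 0.34 for Adra1a, -0.44 to 0.33 for Adra1b, -0.71 to 0.0083 for Adra2b, -0.89 to 0.19 for Adra2c, -0.31 to 0.35 for Adrb1 and -1.74 to 0.70 for Adrb3. In Y198F against S205A controls of the 22 series they were -0.27 to 0.34 for Adra1a, -0.46 to 0.11 for Adra1d, -0.53 to 0.64 for Adra2b, -0.63 to 0.57 for Adra2c and -0.12 to 1.32 for Adrb1. For the 22 series in the S205A line they were -1.35 to 0.32 for Adra1b, -1.82 to 1.80 for Adra2b and -0.076 to 0.67 for Adrb3.

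Over all genes, 2411 were past the threshold in Y198F, 922 with all 8 groups and 0 with the series term. DESeq2 called 117 in the knockout against 5 in the main fit (243 without the filter, 18 with the block), 47 against 0 in S205A, 37 against 0 in Y198F against S205A controls (9 without the filter), and 1336 against 867 for the series. In Y308F 0 became 7 without the filter. For knockout and Y198F 2004 became 108 with all groups and 3 with the series term, and for Y198F and Y308F 979 became 1559 with DESeq2, 1701 without the filter, 267 with the block and 0 with all groups or the series term. For Y198F and S205A 0 became 364 with DESeq2, 37 without the filter and 3 with all groups. With single libraries left out, the 2411 of Y198F became 908 (without its control 3) to 2128, and 1546 without its control 1. The 867 of the series became 82 (without S205A control 4) to 1140, with 113 without S205A mutant 1 (these 2 fits leave 1 library outside the series), 388 without control 3, 486 without mutant 4 and 566 without mutant 3. For Y198F and S205A the 0 became 892 without S205A control 4, 24 without mutant 2 and at most 5 otherwise. For knockout and Y198F it was 1043 (without Y198F control 3) to 2024, with 1149 without knockout 3 and 1312 without knockout 2. For Y198F and Y308F it was 320 (without Y198F control 3) to 1227, with 323 to 650 without Y308F mutant 3, Y198F control 1, Y308F control 2, Y308F mutant 2, Y198F mutant 1 or Y198F mutant 2. The 5 genes of the knockout became 1 to 5. In the remaining differences all counts were at most 13. Correlations kept their sign and call with a prior count of 0.5. Few counts limit Adra1b, Adra2b and Adrb1.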

Other observations

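The transmitter side of the adrenergic system was thinly read in these arteries, and its levels over all libraries are given here. Th, Dbh and Ddc, the enzymes that make noradrenaline, had at most 5, 10 and 15 counts in any of the 26 libraries. These are counts of RNA in the artery, and the density of its nerves was not measured. Slc6a2, which takes noradrenaline back into nerve endings, had 5 to 132 counts, and Npy, a co-transmitter of sympathetic nerves, 0 to 33. Maoa, an enzyme that breaks down noradrenaline, was read in every library, at 20.88 to 32.96 CPM. Of the Gi arm, the potassium channel genes Kcnj6 and Kcnj3 had 0 and at most 8 counts. In the desensitization list Rgs5, a pericyte and smooth muscle gene that ends Gq and Gi signals, spanned 74.82 to 802.5 CPM over the libraries, and Rgs2, which ends Gq signals, 56.43 to 222.1 CPM.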
